A study of Homo sapiens with 4 samples.

Results

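The histone genes of MOLM-14 cells were described by class after exposure to rapamycin. The members were all protein-coding genes whose current symbols name a linker histone, a clustered H2A, H2B, H3 or H4 gene, or the variants H2AX, H2AZ, H2AJ, macroH2A and H3-3. The RefSeq gene table holds 82 such genes. The arrays carried a probe set for 66 of them, out of 25582 probe sets in all, and the other 16 were not analysed here. Of the 66 genes, 46 lay above the filter on low values, which was a mean of 4.86 on the log2 scale, and entered the test. The 20 genes below it kept their values and were not tested.

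MOLM-14 cells are an established human line of acute myeloid leukemia, and rapamycin inhibits the growth-controlling kinase complex mTORC1. RNA from 2 cultures given 10 nM rapamycin for 24 hours and from 2 control cultures was measured on single-colour expression arrays, 1 array per sample. The protocol text attached to every sample, rapamycin and control alike, describes cells transduced with a doxycycline-inducible hairpin, scrambled or directed against Pim2, and kept in 200 ng/ml doxycycline for 72 hours. The agent label and the series design name rapamycin only, so which hairpin, if any, these 4 cultures carried is unknown. The design calls the samples biological replicates, and how far the cultures were separate is not stated, so the p-values measure the spread between these arrays.

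Most replication-dependent histone genes lie in clusters, are transcribed in S phase, and give mRNAs that end in a stem-loop in place of a poly(A) tail. Many of them encode the same protein from separate copies. The class was set here by gene symbol, so some members may depart from this description. The replacement variants are mostly genes outside the clusters with polyadenylated mRNAs, are expressed outside S phase as well, and take the place of canonical histones in particular stretches of chromatin. Histone mRNA that ends in the stem-loop is degraded when DNA synthesis stops. Its amount therefore follows both the number of cells in S phase and the RNA in each of them. In these bulk samples, fewer cells in S phase and less histone RNA per cell cannot be told apart.

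Over all 15099 genes tested, 63 (0.417%) were called higher and 127 (0.841%) lower with rapamycin at an adjusted p under 0.05 in limma. These counts were 466 and 913 without rapamycin replicate 1, 113 and 196 without rapamycin replicate 2, and 33 and 52 without control replicate 2. All 11 markers of a myeloid leukemia line lay above the filter, among them CD33, FLT3 and SPI1. The 3 T cell markers and the 3 erythroid markers lay below it. Of the other marker lists, 2 of 3 B cell, 2 of 4 epithelial, 2 of 3 fibroblast and 2 of 3 endothelial genes passed the filter. The filter kept 15349 of all 25582 probe sets, so passing says little about cell type. The median of all probe sets was 5.43 and 5.45 log2 units on the rapamycin arrays, against 5.44 and 5.38 on the control arrays.

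None of the 46 histone genes was called in either direction. Their median log2 fold change, rapamycin minus control, was -0.03, beside 0.01 over all genes tested, with 20 values above 0 and 26 below. The lowest adjusted p of any histone gene was 0.157. At an unadjusted p under 0.05, 2 histone genes were higher, against a background of 7.19% of all genes, and 6 were lower, against a background of 8.24%. Both rapamycin arrays lay above both controls in 6 of the 46 genes (background 24.8%) and below both in 12 (background 21.9%). For 36 of the 46 genes the 95% interval of the log2 fold change lay wholly within a 1.5-fold change either way, and for 45 it lay within a 2-fold change. Over all 15099 genes tested, these counts were 13312 and 14993, so the histone genes were not bounded more tightly than genes at large. A p that missed the threshold does not show that a gene was equal in both groups. Fits that leave out 1 array assume that the lone array varies like the others. In them the median log2 fold change of the tested histone genes was -0.01 without rapamycin replicate 1 and -0.06 without rapamycin replicate 2. It was -0.15 without control replicate 1 and 0.07 without control replicate 2, beside 0.01 over all genes each time.

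**Figure D1:**
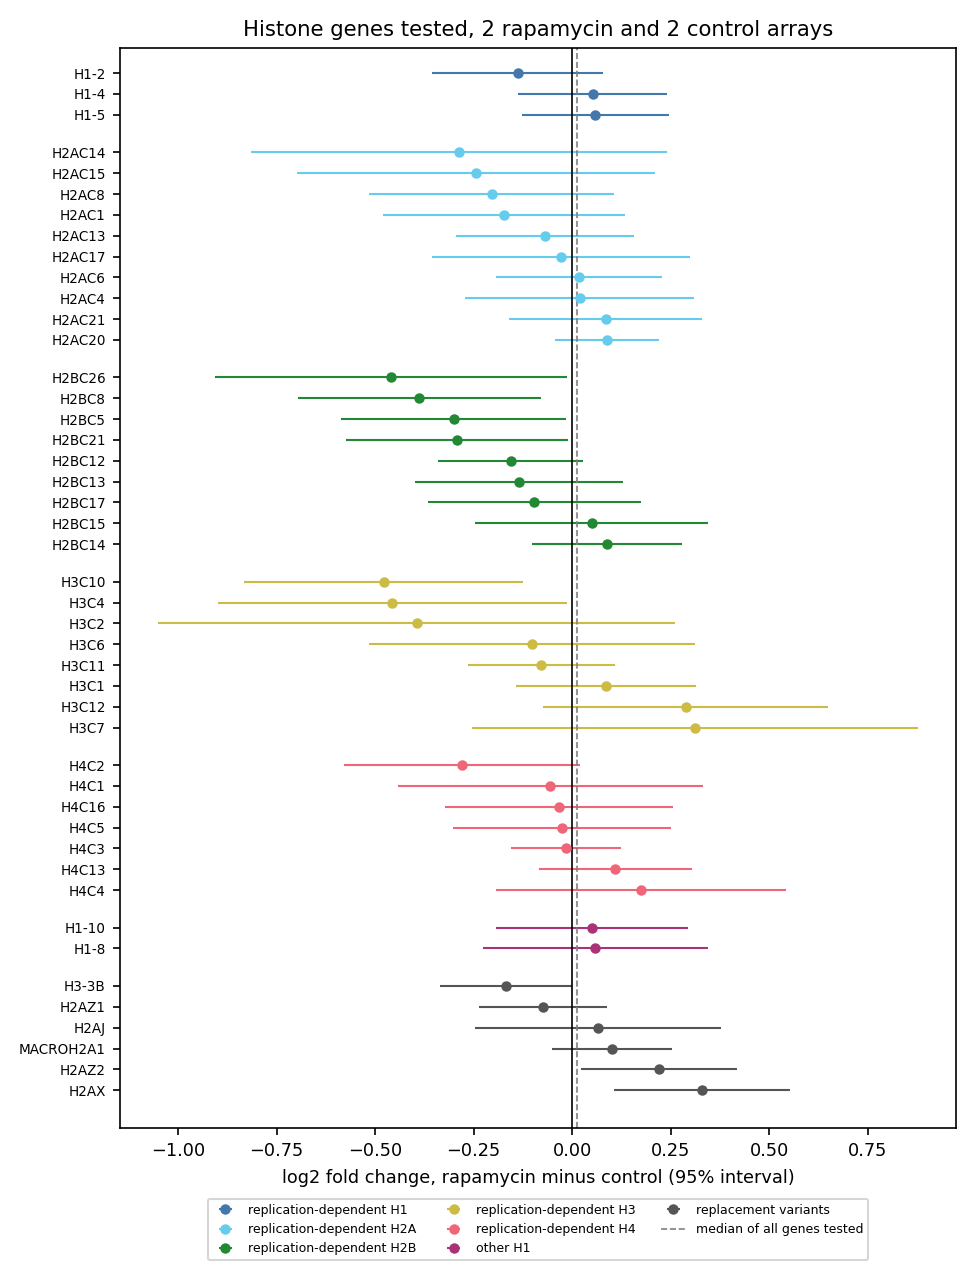
Log2 fold change, rapamycin minus control, with its 95% interval from limma (2 arrays per group) for 45 of the 46 histone genes tested, ordered within each class. Values run from -0.48 for H3C10 to 0.33 for H2AX, and 8 intervals leave out 0, as do those of 2329 of all 15099 genes tested.

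The control arrays differed from each other across the replication-dependent genes. Control replicate 2 exceeded control replicate 1 in 33 of the 37 tested replication-dependent genes (89.2%), whereas it did so in 51.9% of all genes tested. After the mean of the 4 arrays was taken from each gene, the median deviation of these 37 genes was -0.09 and 0.03 on rapamycin replicates 1 and 2, against -0.08 and 0.14 on control replicates 1 and 2. Control replicate 2 was the highest of the 4 arrays in 23 of the 37 genes (62.2%), compared with 24.0% of all genes. The rapamycin arrays also differed, with replicate 2 above replicate 1 in 27 of 37 genes, compared with 48.2% of all genes. The choice of control array set the sign of the comparison over these 37 genes together, though not in the H2B class. Against control replicate 1 alone, both rapamycin arrays were higher in 19 of the 37 genes and lower in 10, beside 36.6% and 33.0% of all genes. Against control replicate 2 alone, both were higher in 3 and lower in 25, beside 37.4% and 33.1% of all genes. Over all 46 tested histone genes the median log2 fold change was 0.07 without control replicate 2 and -0.15 without control replicate 1. Technical and biological sources of this spread were not tested.

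**Figure D2:**
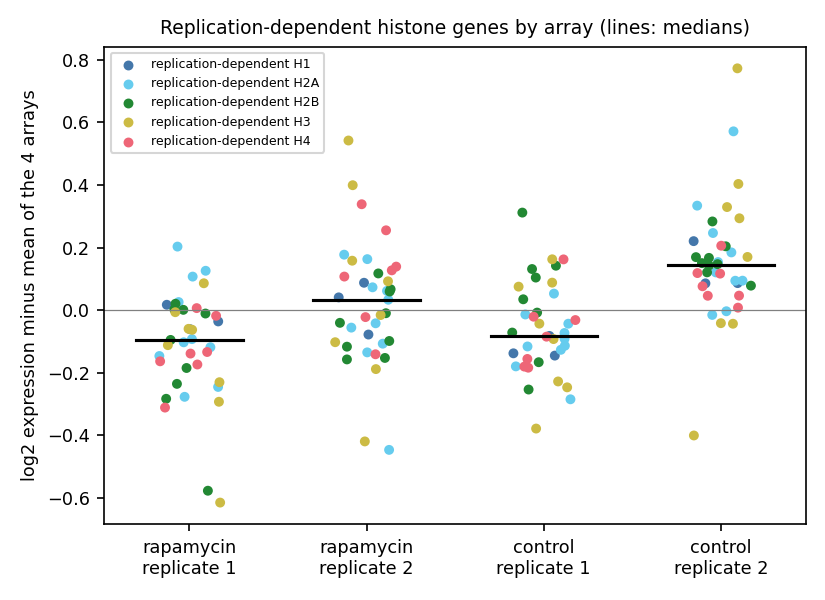
Deviation of each of the 37 tested replication-dependent histone genes from its mean over the 4 arrays, in log2 units, with 1 column of points per array. Control replicate 2 has the highest median, 0.14, and the other 3 arrays have medians from -0.09 to 0.03.

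In 8 histone genes, 2 higher and 6 lower, the fold change passed an unadjusted p of 0.05 in limma, beside 7.19% and 8.24% of all genes. The 100 bases before the start sites of these 8 genes are shown. A link between sequence and fold change was not tested. The genes were picked after their values were seen. The sequences are RefSeq, build GRCh38.p14, written 5′ to 3′ on the strand of the gene. Capitals mark the match to a TATA box, searched as TATAAA. They also mark a CCAAT box, which reads ATTGG where it lies on the strand opposite the gene. The longest match in capitals is the octamer bound by POU-domain factors, searched as ATTTGCAT. The windows of the 2 genes with higher values are H2AX at chr11:119095466-119095565 and H2AZ2 at chr7:44848088-44848187, both on the minus strand.
H2AX: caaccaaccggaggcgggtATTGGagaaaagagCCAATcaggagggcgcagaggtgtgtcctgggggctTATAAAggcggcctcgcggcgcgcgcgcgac
H2AZ2: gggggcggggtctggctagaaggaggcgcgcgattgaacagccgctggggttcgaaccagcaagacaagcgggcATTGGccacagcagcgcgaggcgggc

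The other 6 genes had lower values with rapamycin. The H3 genes are H3C10 at chr6:27809951-27810050 on the plus strand and H3C4 at chr6:26199294-26199393 on the minus strand. The H2B genes on chromosome 6 are H2BC8 at chr6:26216689-26216788 on the minus strand and H2BC5 at chr6:26158021-26158120 on the plus strand. Those on chromosome 1 are H2BC21 at chr1:149886683-149886782 on the minus strand and H2BC26 at chr1:228458003-228458102 on the plus strand.
H3C10: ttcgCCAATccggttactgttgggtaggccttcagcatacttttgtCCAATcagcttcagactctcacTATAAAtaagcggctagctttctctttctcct
H3C4: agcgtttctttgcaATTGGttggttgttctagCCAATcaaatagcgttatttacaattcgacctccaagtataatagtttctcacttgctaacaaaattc
H2BC8: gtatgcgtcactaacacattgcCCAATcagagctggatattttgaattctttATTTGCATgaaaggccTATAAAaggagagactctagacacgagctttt
H2BC5: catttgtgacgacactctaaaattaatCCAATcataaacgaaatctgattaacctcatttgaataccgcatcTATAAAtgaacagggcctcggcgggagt
H2BC21: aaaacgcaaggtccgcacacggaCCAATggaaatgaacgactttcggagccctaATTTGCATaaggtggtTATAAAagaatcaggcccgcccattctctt
H2BC26: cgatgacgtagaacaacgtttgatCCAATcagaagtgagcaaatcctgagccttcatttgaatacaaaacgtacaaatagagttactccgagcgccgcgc

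A window was found for 75 of the 82 histone genes. On either strand, CCAAT was present in 59 of the 75 windows (78.7%), against 18.7% of the 27305 promoter windows of all genes. TATAAA was present in 39 (52.0%), against 5.34% of all windows. The exact octamer occurred in 8 of 18 H2B windows (44.4%) and in 10 of the 75 histone windows (13.3%), against 0.718% of all windows. H2BC8 and H2BC21 carry it among the sequences above, while H2BC5 and H2BC26 do not hold these exact letters. CCAAT was found in 3 of 13 H4 windows, in contrast to 11 of 11 H3 windows and 16 of 16 H2A windows. The H1 box searched as AAACACA was found in 0 of 5 windows of replication-dependent H1 genes and in 1.71% of all windows. Bases farther upstream than the window were not searched, so this count cannot show whether the H1 promoters hold the box. Motif matches describe letters in a window and not binding.

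Linker histones bind the DNA that enters and leaves the nucleosome. Of the 5 replication-dependent H1 genes, H1-2, H1-4 and H1-5 lay above the filter, and their median log2 fold change was 0.05. H1-2 read 10.37 and 10.35 log2 units with rapamycin, against 10.35 and 10.65 in controls. H1-4 read 11.61 and 11.73 with rapamycin, against 11.51 and 11.73 in controls, and H1-5 read 10.85 and 10.87 with rapamycin, against 10.69 and 10.92 in controls. The groups overlapped in all 3 genes, and the log2 fold changes were -0.14 (SE 0.10), 0.05 (SE 0.08) and 0.06 (SE 0.08), with adjusted p values in limma of 0.542 to 0.824. Both rapamycin arrays lay above control replicate 1 in 3 of the 3 genes (36.6% of all genes), while they lay above control replicate 2 in 0 and below it in 2 (37.4% and 33.1% of all genes).

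Among the remaining H1 genes, H1-8, an oocyte linker histone, read 5.86 and 6.02 with rapamycin against 5.90 and 5.86 in controls. H1-10 differed by 0.05 (SE 0.11), and the testis genes H1-6 and H1-7 lay below the filter.

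H2A and H2B form the dimers that flank the H3-H4 tetramer in the nucleosome. Of 13 measured H2A cluster genes, 10 were tested. Their log2 fold changes ran from -0.29 to 0.09, with the median at -0.05. Both rapamycin arrays lay above both controls in 1 gene and below both in 1 gene. These shares are 10.0% each, beside backgrounds of 24.8% higher and 21.9% lower over all genes. H2AC20, the gene with the higher values, read 12.36 and 12.39 with rapamycin, against 12.26 and 12.32 in controls, a log2 fold change of 0.09 (SE 0.06, adjusted p = 0.521 in limma). The gene with the lower values was H2AC1, a testis H2A gene, at 4.80 and 4.86 with rapamycin against 4.97 and 5.04 in controls. Its rapamycin mean lay below the filter of 4.86 and its control mean above it. H2AC1 was thus tested only through its control values, and the H2A share with lower values rests on this gene alone.

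The H2A genes with the widest differences changed with single arrays. H2AC14 read 5.98 and 6.18 with rapamycin, against 5.94 and 6.79 in controls, and its log2 fold change of -0.29 (SE 0.23) became 0.14 without control replicate 2. H2AC15 read 7.94 and 7.29 with rapamycin, against 7.64 and 8.07 in controls. Its log2 fold change of -0.24 (SE 0.20) became 0.08 without rapamycin replicate 2 and -0.03 without control replicate 2. H2AC14 was called at -0.71 without control replicate 1 (adjusted p = 0.0416 in limma, range over the 13 alternatives 0.0416 to 0.940), and H2AC15 at -0.57 without rapamycin replicate 1 (adjusted p = 0.0393, range 0.0393 to 0.990). Every one of the 10 tested H2A genes was higher on control replicate 2 than on control replicate 1.

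The median log2 fold change of the H2B cluster genes was -0.16 over 9 tested genes of 15 measured. Both rapamycin arrays lay below both controls in 6 of the 9, against a background of 21.9%, and above both in 0, against 24.8%. Against control replicate 1 alone, both rapamycin arrays were lower in 6 of the 9 genes (33.0% of all genes), and against control replicate 2 alone in 9 of 9 (33.1% of all genes). The class median was -0.11 without control replicate 2 and -0.22 without control replicate 1. With all 4 arrays, no H2B gene reached an adjusted p under 0.05.

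H2BC8 lies head to head with H2AC8 in the large cluster on chromosome 6. It read 5.11 and 5.20 with rapamycin, against 5.45 and 5.63 in controls. That is 1.31-fold lower, a log2 fold change of -0.39 (SE 0.14, adjusted p = 0.215 in limma). The gap between the groups was wider than the gap within either group. H2BC26, the H2B gene of a small cluster on chromosome 1, read 6.02 and 6.71 with rapamycin, against 6.90 and 6.74 in controls. Its log2 fold change of -0.46 (SE 0.20, adjusted p = 0.309) was -0.11 without rapamycin replicate 1, and rapamycin replicate 2 lay close to control replicate 2. Without rapamycin replicate 2 it was called at -0.81 (adjusted p = 0.0155, range over the 13 alternatives 0.0155 to 0.656).

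H2BC5 and H2BC21, named after their values were seen, also had both rapamycin arrays below both controls. H2BC5 read 5.42 and 5.49 with rapamycin, against 5.74 and 5.78 in controls, a log2 fold change of -0.30 (SE 0.13). H2BC21 read 6.37 and 6.64 with rapamycin, against 6.79 and 6.80 in controls, a log2 fold change of -0.29 (SE 0.13). Both had adjusted p values in limma near those of H2BC26, 0.295 for H2BC5 and 0.306 for H2BC21. H2BC12 and H2BC13 made up the 6 with log2 fold changes of -0.16 and -0.14. In contrast, H2BC14 read 11.17 and 11.21 with rapamycin, against 10.98 and 11.22 in controls, and its log2 fold change was 0.09 (SE 0.08, adjusted p = 0.680).

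H3 and H4 form the central tetramer of the nucleosome. The 8 tested H3 cluster genes ranged in log2 fold change from -0.48 to 0.31, with the median at -0.09. Both rapamycin arrays lay below both controls in 2 of them, H3C10 and H3C4, and above both in 1, H3C1, beside backgrounds of 21.9% and 24.8%. The class median was 0.08 without control replicate 2 and -0.29 without control replicate 1. H3C10 read 6.49 and 6.13 with rapamycin, against 6.63 and 6.95 in controls. This was 1.39-fold lower, a log2 fold change of -0.48 (95% interval -0.83 to -0.12, adjusted p = 0.189 in limma). Without rapamycin replicate 1 it was called at -0.66 (adjusted p = 0.0260, range over the 13 alternatives 0.0260 to 0.724).

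H3C4 read 8.52 and 9.29 with rapamycin, against 9.29 and 9.42 in controls, a log2 fold change of -0.46 (SE 0.20, adjusted p = 0.309 in limma). Rapamycin replicate 2 all but met control replicate 1, and the log2 fold change was -0.07 without rapamycin replicate 1. Without rapamycin replicate 2 it was called at -0.84 (adjusted p = 0.000817, range over the 13 alternatives 0.000817 to 0.647). H3C7 and H3C12, named after their values were seen, had log2 fold changes of 0.31 (SE 0.25) and 0.29 (SE 0.16), and in both the groups overlapped. The control mean of H3C7, 4.80, lay below the filter of 4.86 and its rapamycin mean, 5.11, above it. H3C7 was thus tested only through its rapamycin values. H3C12 was called at 0.54 without rapamycin replicate 1 (adjusted p = 0.0186, range 0.0186 to 0.943). H3C2, named likewise, read 6.44 and 6.63 with rapamycin, against 6.35 and 7.50 in controls, and control replicate 2 stood above the other 3 arrays. It was called at -0.97 without control replicate 1 (adjusted p = 0.00153, range 0.00153 to 0.899) and not without control replicate 2. H3C11 read 12.64 and 12.69 with rapamycin, against 12.61 and 12.87 in controls, with a log2 fold change of -0.08 (SE 0.08, adjusted p = 0.711).

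All 7 tested H4 genes, of 10 measured, had 95% intervals within a 1.5-fold change, as did 13312 of the 15099 genes tested. The H4 log2 fold changes ran from -0.28 to 0.18, with the median at -0.03. With the 3 genes below the filter included, the median was 0.05, so its sign depended on which members were counted. H4C3 read 11.63 and 11.60 with rapamycin, against 11.59 and 11.67 in controls, and the 95% interval of its log2 fold change ran from -0.16 to 0.12. H4C2 alone did not overlap between groups, at 4.90 on both rapamycin arrays against 5.21 and 5.16 in controls. Its log2 fold change was -0.28 (SE 0.13, adjusted p = 0.360 in limma), and its values lay near the filter of 4.86. Both rapamycin arrays thus lay below both controls in 14.3% of the tested H4 genes and above both in 0%. The backgrounds over all genes were 21.9% and 24.8%. H4C4 read 6.63 and 7.13 with rapamycin against 6.61 and 6.80 in controls.

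**Figure D3:**
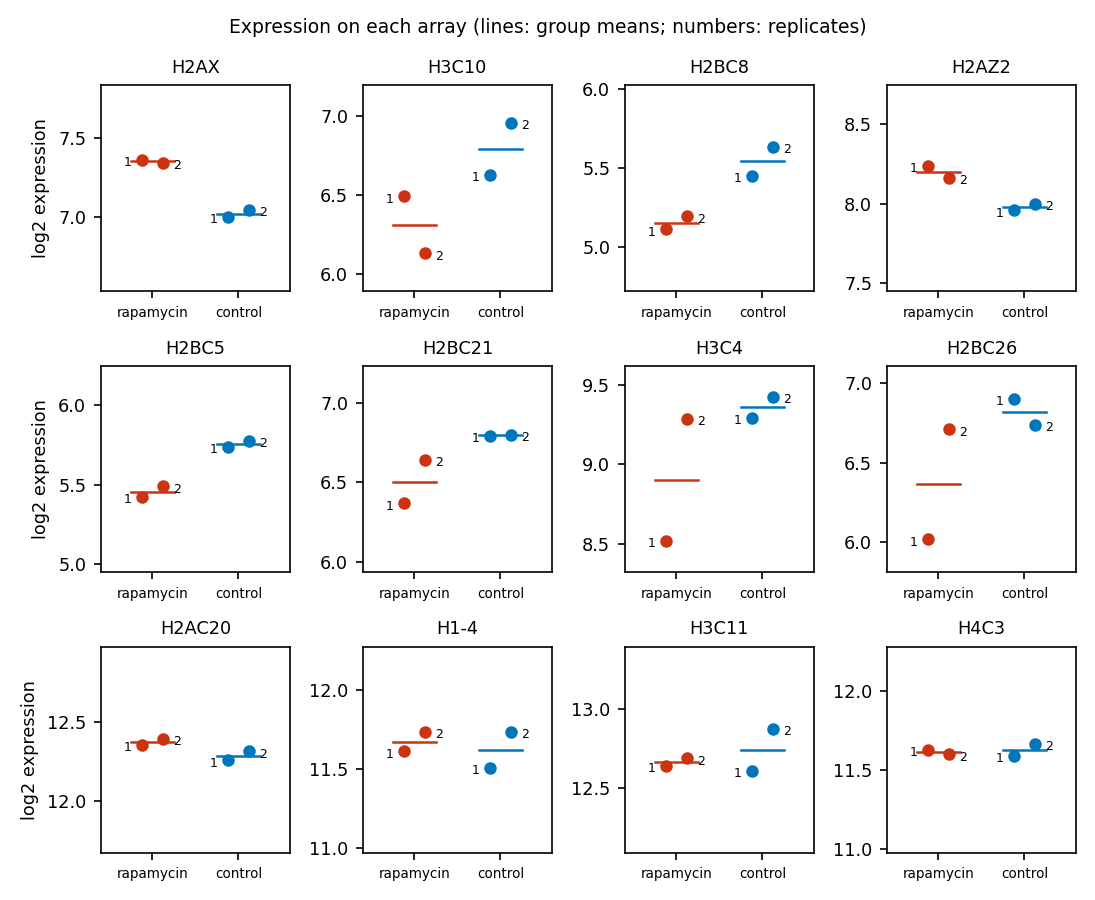
Log2 expression on each of the 4 arrays for 12 histone genes, rapamycin arrays left and control arrays right in every panel, with the group mean as a line. In H2AX and H2AZ2 both rapamycin arrays lie above both controls, in H3C10, H2BC8, H2BC5 and H2BC21 below both, and in H3C11 and H4C3 the groups overlap.

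The highest log2 fold change of the 46 tested histone genes was that of a replacement variant. H2AX, the H2A variant phosphorylated at DNA double-strand breaks, read 7.36 and 7.34 with rapamycin, against 7.00 and 7.04 in controls. This was 1.26-fold higher, a log2 fold change of 0.33 (95% interval 0.11 to 0.55), and the gap between groups exceeded the spread within each. The adjusted p in limma was 0.157 and ranged from 0.109 to 0.561 over the 13 alternatives, so H2AX passed the threshold in none of them. H2AX is unusual among the variants in that its transcripts can end either in the histone stem-loop or in a poly(A) tail.

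H2AZ1 and H2AZ2 encode the near-identical H2A.Z proteins, which are placed at promoters by dedicated remodelling complexes. H2AZ2 read 8.24 and 8.16 with rapamycin, against 7.96 and 8.00 in controls, a log2 fold change of 0.22 (SE 0.09, adjusted p = 0.270 in limma). H2AZ1 read 9.92 and 9.89 with rapamycin, against 9.93 and 10.03 in controls, a log2 fold change of -0.07 (SE 0.07, adjusted p = 0.685). The difference between the paralogs was not tested.

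H3-3B, which encodes the H3 variant deposited independently of replication, read 9.44 and 9.53 with rapamycin, against 9.66 and 9.64 in controls. Its log2 fold change was -0.17 (SE 0.07, adjusted p = 0.324 in limma), and the groups did not overlap. The second gene for the same protein, H3-3A, was not analysed here. MACROH2A1, which carries a large macro domain, read 10.09 and 10.10 with rapamycin, against 9.99 on each control array, a log2 fold change of 0.10 (SE 0.07). MACROH2A2 read 4.03 and 4.11 with rapamycin, against 3.79 and 3.92 in controls, but lay below the filter. H2AJ differed by 0.07 (SE 0.14). In all, 3 of the 6 tested variants had both rapamycin arrays above both controls and 2 had both below, beside backgrounds of 24.8% and 21.9%. The variant median was 0.08. It was 0.04 without control replicate 2 and 0.14 without control replicate 1.

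Copies that encode 1 protein had differing log2 fold changes, and the differences between copies were not tested. RefSeq lists 10 genes for the common H3 protein, all measured and 8 of them tested, and 3 had log2 fold changes above 0 and 5 below, from -0.48 to 0.31. The highest was that of H3C7, which passed the filter only through its rapamycin values. RefSeq lists 14 genes for the common H4 protein, of which 9 were measured and 7 tested, 2 above 0 and 5 below. Among the 5 genes that share the protein of H2AC11, the 3 tested were H2AC13, H2AC15 and H2AC17, at -0.24 to -0.03. H2AC4 and H2AC8 encode the same protein and had log2 fold changes of 0.02 and -0.20. Probe sequences were not used here, so how far probes of 1 copy also read another is unknown, and copies are not independent measurements.

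Many H2A and H2B genes stand head to head and share the DNA between them. Of 8 such neighbour pairs with both genes measured, 6 had both genes tested, and 3 of those 6 had log2 fold changes of the same sign. H2AC8 and H2BC8 had -0.20 and -0.39. By contrast H2AC20 and H2BC21 had 0.09 and -0.29, and H2AC14 and H2BC14 had -0.29 and 0.09. The low values of H2BC8 and H2BC21 were thus matched in sign by the neighbour in the first pair and not in the second.

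The 20 histone genes below the filter held 17 replication-dependent genes, 2 other H1 genes and MACROH2A2. H2AC7, named after its values were seen, had the widest separation, at 3.08 and 3.58 with rapamycin against 4.16 and 4.15 in controls. With the filter removed its adjusted p in limma was 0.128 (log2 difference -0.82). H2BC9 read 4.41 and 4.44 with rapamycin, against 3.52 and 4.55 in controls, so 1 low control gave its difference of 0.39.

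Genes that make, process or carry histones were described from 3 lists of 78 genes, all of them measured and tested, and 0 were called in limma. At an unadjusted p under 0.05, 16 were higher and 3 lower, beside backgrounds of 7.19% and 8.24%. Some of the 78 genes were called when 1 rapamycin array was left out, where calls over all genes also rose. The first holds 15 genes of histone transcription and mRNA 3′ end processing, with a median log2 fold change of 0.06. Both rapamycin arrays were above both controls in 5 of the 15 genes and below both in 4, beside backgrounds of 24.8% and 21.9%. NPAT, the cyclin E-CDK2 substrate that activates the histone clusters, read 8.77 and 8.63 with rapamycin, against 8.46 and 8.42 in controls (log2 fold change 0.26, SE 0.09, adjusted p = 0.197 in limma). CASP8AP2, also called FLASH and needed for the 3′ cleavage, read 9.30 and 9.15 with rapamycin against 8.95 and 8.96 in controls, a log2 fold change of 0.27. Without rapamycin replicate 2 it was called at 0.34 (adjusted p = 0.0445, range over the 13 alternatives 0.0445 to 0.625). SLBP, which binds the stem-loop, read 8.64 and 8.56 with rapamycin against 8.51 and 8.49 in controls, a log2 fold change of 0.10 (SE 0.08, adjusted p = 0.610). HINFP, the activator of H4 genes, had 0.15, with overlapping groups, and was called at 0.32 without rapamycin replicate 1 (adjusted p = 0.0450, range 0.0450 to 0.958).

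The second list holds 28 chaperones, import factors and deposition factors, with a median log2 fold change of 0.04, and both rapamycin arrays were above both controls in 10 and below both in 7, beside backgrounds of 24.8% and 21.9%. ASF1B, the proliferation-linked H3-H4 chaperone, read 8.45 on both rapamycin arrays, against 7.89 and 8.10 in controls. Its log2 fold change was 0.45 (SE 0.10) and its adjusted p in limma was 0.0622. The adjusted p was 0.0412 with the replicate number as a block, 0.0486 when protein-coding genes alone were tested and 0.0219 without rapamycin replicate 1, and it ranged from 0.0219 to 0.376 over the 13 alternatives. CHAF1B, a subunit of the chromatin assembly factor that works at replication forks, read 7.85 and 7.74 with rapamycin against 7.26 and 7.46 in controls, a log2 fold change of 0.43 (SE 0.11, adjusted p = 0.0941). VPS72, a subunit of the complexes that deposit H2A.Z, read 7.75 and 8.04 with rapamycin against 8.08 and 8.33 in controls, a log2 fold change of -0.31 (SE 0.12, adjusted p = 0.273).

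The third list holds 35 genes of DNA replication in S phase, and its median log2 fold change was 0.15, compared with 0.01 over all genes. Values were above 0 in 30 of the 35. Both rapamycin arrays were above both controls in 24 (68.6%, background 24.8%) and below both in 1 (background 21.9%). The list was chosen with earlier results of these data known, so its contrast with the background is not an independent one. At an unadjusted p under 0.05, 11 of the 35 genes were higher, against a background of 7.19%, and 0 lower, against 8.24%. None was called at an adjusted p under 0.05. CCNE1 and CCNE2 encode the cyclins E that drive entry into S phase. CCNE1 read 6.93 and 7.01 with rapamycin against 6.44 and 6.61 in controls, a log2 fold change of 0.44 (SE 0.11, adjusted p = 0.108 in limma). CCNE2 read 8.57 and 8.47 with rapamycin against 8.09 and 8.15 in controls, a log2 fold change of 0.40 (adjusted p = 0.0652). Without rapamycin replicate 1 both were called, at 0.48 for CCNE1 (adjusted p = 0.0480, range over the 13 alternatives 0.0480 to 0.464) and 0.35 for CCNE2 (adjusted p = 0.0310, range 0.0294 to 0.332). Without rapamycin replicate 2 CCNE2 was called at 0.44 (adjusted p = 0.0294). The transcription factor gene E2F1 read 6.41 and 6.28 with rapamycin against 5.92 and 5.97 in controls, also 0.40.

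The S-phase list and the replication-dependent histone genes had medians of opposite sign, 0.15 and -0.07. On single arrays, the median deviation of the S-phase genes was 0.07 on both rapamycin replicates, against -0.09 and -0.03 on control replicates 1 and 2. That of the replication-dependent histone genes was -0.09 and 0.03 with rapamycin, against -0.08 and 0.14 in controls. The S-phase genes were thus lower on both controls, whereas the histone genes were low on 1 control and high on the other. Whether the 2 lists differ was not tested.

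**Figure D4:**
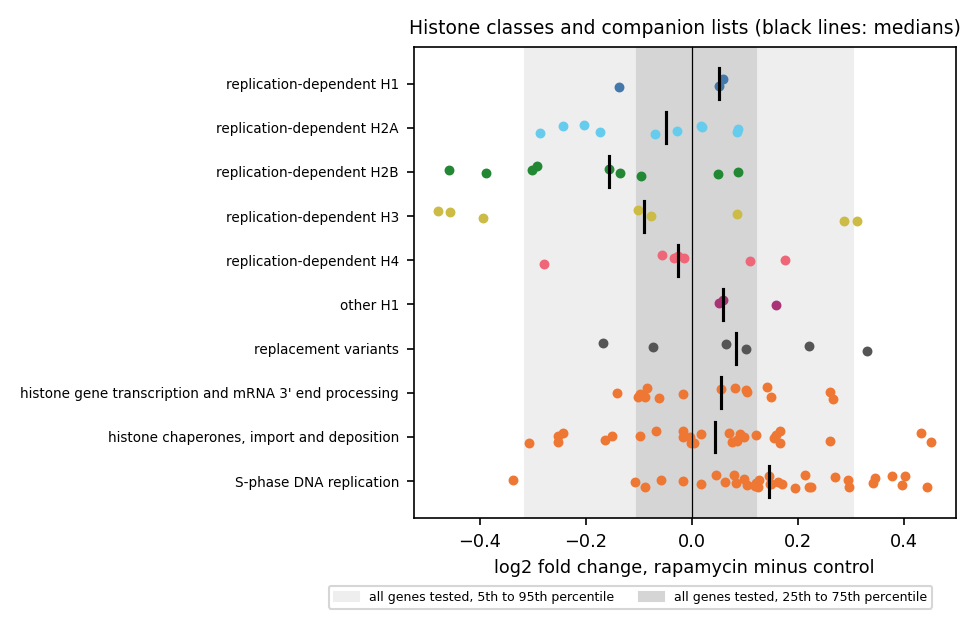
Log2 fold changes, rapamycin minus control, of the tested genes of each histone class and of the 3 companion lists, 1 point per gene with the median as a line, over shaded bands of the percentiles of all 15099 genes. The H2B median lies at -0.16 and the S-phase median at 0.15, and the median of all genes is 0.01.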

How the data were processed

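Expression was measured on 4 single-colour arrays, 2 per group. The deposited series matrix holds a log2 value for every probe set on every array. The submitters' processing notes list RMA and Partek and give no version or role for either. The scale was taken from the values themselves, which run from 1.81 to 13.3. Per the labels' protocols, a whole-transcript kit was used to amplify and biotinylate total RNA. Probe sequences were not used, and the genome build behind the array's probe sets is not stated in these sources. Groups came from the agent label and replicate numbers from the titles.

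The 25582 probe sets are identified by Entrez gene numbers, of which 24839 were found in the RefSeq table of GRCh38.p14, and 24888 probe sets were named through it or the platform annotation. The 694 unnamed probe sets were left out. Probe sets with a mean below the 40th percentile (4.86) were left out, and the probe set with the highest mean stood for each of 3 symbols with several, leaving 15099 genes. The comparison was made in limma 3.58.1 under R 4.3.3 (lmFit with group as the only term, eBayes with a mean-variance trend, two-sided, Benjamini-Hochberg over the 15099 genes). Genes were called at an adjusted p under 0.05. Fold changes are rapamycin minus control with the standard error (SE) of the fit. Moderation added 7.28 degrees of freedom to the 2 residual ones, the median SE was 0.12, and the number of arrays limits the precision. An exact permutation test of 2 against 2 arrays cannot go below p = 0.333 (two-sided), so none is given. The code was tested on simulated data.

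Genes were named by rule: in each histone class the member with the highest mean and the 2 with the largest fold change, every variant, and of each companion list the 3 largest fold changes, with SLBP and NPAT always. Others are named as seen. The values of 1 gene are not reported here. The members and lists were chosen with earlier results of these data known. Same-protein copies are those that RefSeq lists as synonyms of each other. Promoter windows are the 100 bases before the start of the first listed RefSeq entry of a gene, searched on both strands. The alternatives were other filters, scalings, moderations and gene sets, a replicate block and the omission of each array.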

Additional observations from a re-analysis of the deposited data

How the results depend on the processing

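The counts of calls, the class medians and the named genes were recomputed under 13 alternatives, or 12 for H1-8, H2AJ, H2BC8 and H4C2, which lie below the filter at the 60th percentile. Counts of groups that do not overlap, array deviations, neighbour pairs, copies and motifs were not. The count of histone genes called was 0 in the 9 alternatives that kept all 4 arrays, and ranged from 0 to 1 higher and from 0 to 2 lower when 1 array was left out. Over all genes, the 63 higher and 127 lower calls became 16 and 41 with no filter, and 4 and 13 with no mean-variance trend. Each array centred on its median gave 248 lower calls, with 84 higher, a share of lower calls that exceeds that of the deposited scaling by under 10 percentage points. When 1 array was left out the counts ran from 33 to 466 higher and from 52 to 913 lower. Companion genes called were 1 higher when protein-coding genes alone were tested, and 0 to 9 higher and 0 to 2 lower when 1 array was left out. These causes were not tested.

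Replicates 1 and 2 of the groups share only a number. The correlation of same-numbered deviations from the group means was -0.03, and no source pairs them. With the replicate number as a block, 112 genes were called higher and 204 lower, with 1 companion gene (ASF1B) higher and 0 histone genes.

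The median log2 fold change of the replacement variants, 0.08 as reported, was 0.101 with no filter and with the filter at the 60th percentile, 0.0523 with each array centred and 0.0962 with quantile normalization repeated. When 1 array was left out, the class medians ran from 0.0385 to 0.144 for the replacement variants, from -0.0012 to 0.140 for other H1, from -0.06 to 0.16 for replication-dependent H1, from -0.19 to 0.10 for H2A, from -0.22 to -0.11 for H2B, from -0.295 to 0.077 for H3 and from -0.15 to 0.12 for H4. The comparison with each control array alone was added after seeing the data.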

Other observations

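Histone-related genes that the membership rule leaves out were also read. CENPA, the H3 variant that marks centromeres, read 7.03 and 7.11 with rapamycin, against 7.11 and 7.08 in controls, a log2 fold change of -0.03 (SE 0.10). H2AB1, a short H2A variant of the testis, read 7.59 and 7.78 with rapamycin against 7.78 and 7.95 in controls, a log2 fold change of -0.18 (SE 0.11, adjusted p = 0.471 in limma). The pseudogene H2BC20P differed by 0.02 and H2BP1 by -0.04, with overlapping groups in both. H3-4, H3-5, H2BW1, H2BW2 and H2AP lay below the filter. These genes were chosen after their values were seen.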
